A study of Danio rerio with 2 samples.

Results

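The transcripts examined were those of 42 zebrafish genes for mitosis and for the cyclins with their kinases, in RNA-seq of hearts collected at 72 hpf. The genes were taken from a table of 33396 genes by their zebrafish names, and not by a threshold on their values. They were, however, chosen with earlier results of these data known. Of the 42 names, 41 were paired with 1 Ensembl identifier. The remaining name, *ccnd2a*, could not be placed, because 2 identifiers share the symbol CCND2, and both are described apart from the counts.

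The data consisted of 2 libraries, 1 per group. The control library came from hearts of wild type embryos, and the other from hearts of embryos homozygous for *smyd4* L544Efs*1, a frameshift in the gene of a SET and MYND domain methyltransferase. Both libraries are recorded as strain Tu. According to the methods the hearts of many embryos were pooled in each library, the mutants were both maternal and zygotic (MZ*smyd4*), and both groups carried the cardiomyocyte reporter Tg(cmcl2:GFP), whose fluorescence guided the dissection. The mutant line traces to 1 insertion allele. The authors deposited FPKM values, that is, reads normalised to the length of the gene and to the size of the library. Whole reads could be worked out from these values, with totals of 18840114 reads for control and 17960132 for the other library. The mutated gene *smyd4* was at 2.42 FPKM in control and at 2.42 FPKM in the other library (111 and 106 reads). With TMM, a scaling named below, the ratio was 0.700 (0.531 to 0.922, counting error only). Its transcript was thus still present in these values. By contrast, the authors report from qRT-PCR and *in situ* hybridization of embryos that the transcript was fully lost in the mutants. The other library is therefore called the mutant-labelled library after its label.

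Progression through the cell cycle is driven by cyclin-dependent kinases (CDKs), which are active only when bound to a cyclin. D and E cyclins act in G1 and at the entry into S phase, A cyclins in S and G2, and B cyclins with Cdk1 at mitosis. Polo and Aurora kinases build the spindle, the spindle assembly checkpoint holds back anaphase until the kinetochores are attached, and the anaphase-promoting complex (APC/C) with Cdc20 then marks securin and B cyclins for destruction. In the embryonic zebrafish heart cardiomyocytes still divide, and so do other embryonic tissues of that age.

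Levels are given in FPKM. Differences are log2(FPKM + 1) in the mutant-labelled library minus control, a scale that compresses the differences of scarce transcripts. A gene is called higher or lower below if this difference was more than 1 in size. With 1 library per group there was no replicate check and the genotypes could not be tested. The intervals given for ratios are exact Clopper-Pearson 95% intervals from the recovered reads, and they cover counting error only. In pooled hearts, more dividing cells and more of these transcripts per cell cannot be told apart. The authors report less staining for phosphorylated histone H3 and PCNA in mutant cardiomyocytes, at an earlier stage than these libraries. They also report fewer ventricular cardiomyocytes at a later stage. Those are protein stains and cell counts of cardiomyocytes, whereas the values here are RNA of whole dissected hearts. How they relate was not tested. Markers of other tissues, such as liver and epidermis, were also present in both libraries, at levels given below. Their part in the levels of the mitosis and cyclin genes was not tested.

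Most of the mitosis and cyclin genes were higher in the mutant-labelled library. Of the 41 genes with an identifier, 39 reached 1 FPKM in either library. Among these 39, 24 were higher and 1 was lower, with 14 in between. The share of higher genes was 61.5%, against 33.3% of all 17800 genes tested, and for lower genes the background was 11.6%. The median difference over the 39 genes was 1.46, and over all tested genes it was 0.49. The largest differences were those of *cdc20* (3.33) and *nuf2* (3.22), and the smallest was that of *bub3* (-1.03). The summed level of the 41 genes was 942 FPKM in control and 2213 in the mutant-labelled library. In control 22 of them lay above 10 FPKM and 2 above 100 FPKM, and in the mutant-labelled library 34 and 10 did so. The shares of all genes past these levels are not given here, so these counts are not read as particular to the mitosis and cyclin genes. The median level of all tested genes was itself 4.47 FPKM in control and 6.81 FPKM in the mutant-labelled library.

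Because the median over all genes was itself above 0, the counts were examined under other scalings. With the trimmed mean of M values (TMM), 19 of the 39 genes were higher and 1 was lower, against a background of 21.2% higher and 19.3% lower, and the median was 0.98. With upper-quartile scaling, 18 were higher and 3 were lower, against 18.6% and 21.8% of all genes. Under all 5 scalings, the deposited values included, 18 genes passed 1 and 31 were above 0. These 18 genes were *cdk2*, *ccnb1*, *ccnb3*, *ccnd1*, *ccne1*, *ccne2*, *pkmyt1*, *plk1*, *bub1ba*, *ttk*, *ndc80*, *nuf2*, *kif11*, *tpx2*, *kif23*, *cdc20*, *racgap1* and *top2a*. Another 11 were higher under some scalings only. The scalings shift all genes together, so the counts under all 5 are those of upper-quartile scaling and not 5 separate checks. With that scaling the median of all tested genes was -0.07. In the deposited values 33 of the 39 genes were above 0, and so were 11539 of all 17800.

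**Figure D1:**
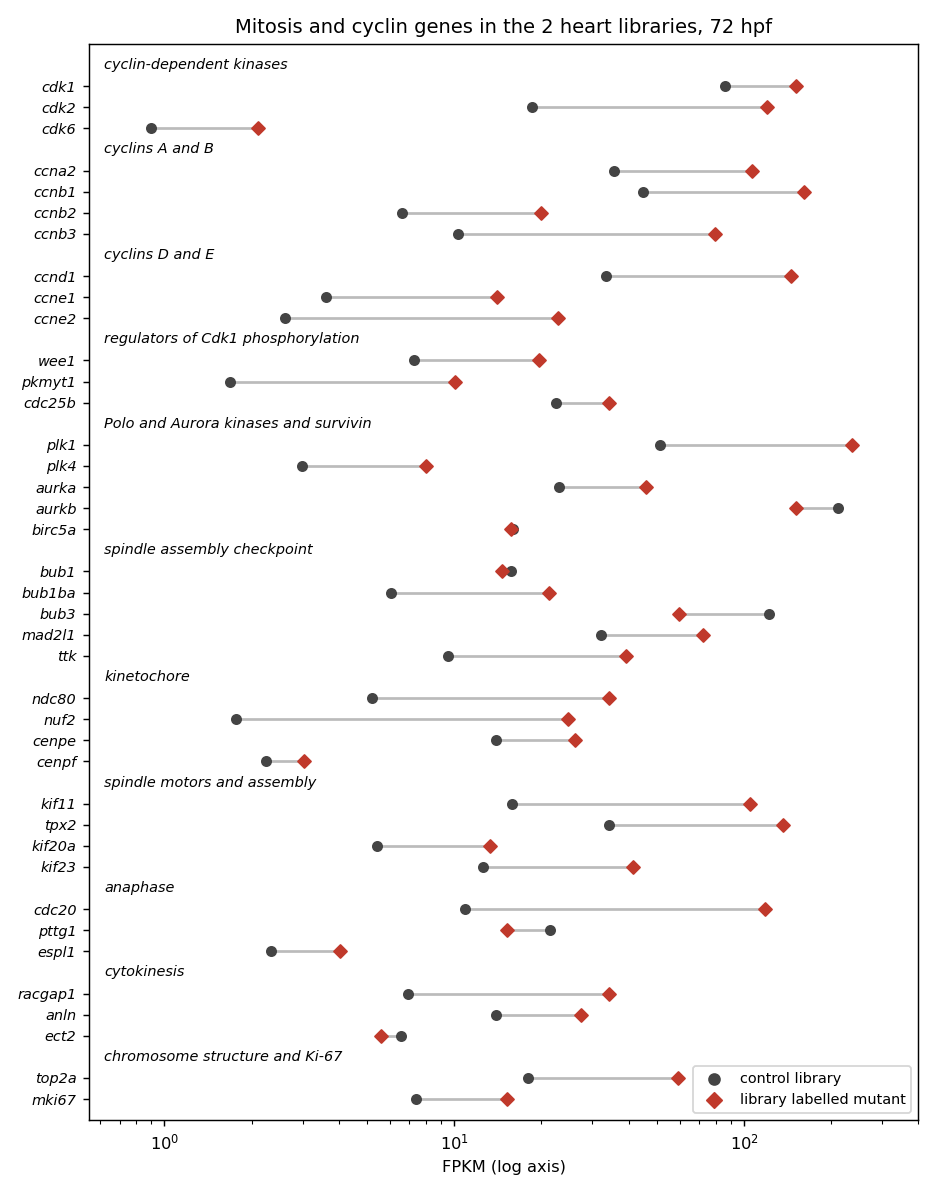
FPKM (log axis) of the 39 tested genes in the control library (grey circles) and in the mutant-labelled library (red diamonds), 1 library each and grouped by role, with a line joining the 2 values of a gene. The red diamond lies to the right for most genes, and to the left for *aurkb*, *birc5a*, *bub1*, *bub3*, *pttg1* and *ect2*.

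Among the cyclin-dependent kinases, *cdk2*, whose product pairs with cyclins E and A, differed most. It was at 18.6 FPKM in control (436 reads) and 120.2 in the mutant-labelled library (2683 reads), a ratio of 6.46 (5.83 to 7.16). The mitotic kinase gene *cdk1* was the most abundant of the 4 in both libraries, at 86.1 and 151 FPKM. Its difference of 0.81 did not reach the threshold, and with TMM scaling it was 0.30. The genes *cdk4* and *cdk6*, whose products bind D cyclins, were barely detected. *cdk6* was at 0.901 FPKM in control and 2.11 in the mutant-labelled library, and *cdk4* was at 0.481 and 0.421 FPKM, below the filter. Thus *cdk2* stood apart from the other kinases, whose differences were all below 1 in the deposited values. For *cdk6* this depended on the 1 FPKM added to each value. Its ratio was 2.34 (1.55 to 3.59, 35 and 78 reads), and with 0.1 FPKM added its difference was 1.14.

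All 4 tested A and B cyclins were higher in the deposited values, 3 were with TMM scaling and 2 with upper-quartile scaling. The shares of all tested genes were 33.3%, 21.2% and 18.6%. The level of *ccna2*, the cyclin of S and G2 phase, was 35.6 FPKM in control and 106 in the mutant-labelled library (ratio 2.99, 2.81 to 3.19). Its difference of 1.55 became 0.92 with upper-quartile scaling. *ccnb1*, a B cyclin that activates Cdk1 at mitotic entry, was at 44.9 and 161 FPKM (ratio 3.59, 3.31 to 3.88). *ccnb2*, a related B cyclin, was at 6.61 and 19.9 FPKM, and its difference of 1.46 became 0.98 with TMM scaling. The largest difference of the 4, 2.83, was that of *ccnb3*, a more distant B cyclin, with 10.3 FPKM in control and 79.2 in the mutant-labelled library. *ccna1*, a cyclin known in mouse for its role in male germ cells, had 0 reads in control and 1 read in the mutant-labelled library, so this cyclin was not detectable at this depth. Germ line and maternal transcripts were also scarce, as each of the 8 genes of that marker list was below 2 FPKM in both libraries.

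The cyclins of G1 followed the same direction. *ccnd1*, the D cyclin induced by growth signals, was at 33.3 FPKM in control and 145 in the mutant-labelled library (1169 and 4865 reads, ratio 4.37, 4.09 to 4.66). The E cyclins, which act with Cdk2 at the start of S phase, were less abundant. *ccne1* was at 3.62 and 14.1 FPKM and *ccne2* at 2.62 and 22.8 FPKM, and the ratio for *ccne2* was 8.71 (6.95 to 11.0). The order of the E cyclins was thus reversed between the libraries, with *ccne1* above *ccne2* in control and below it in the mutant-labelled library. Of the identifiers that share the symbol CCND2, ENSDARG00000051748 was at 28.8 and 136 FPKM (difference 2.20) and ENSDARG00000070408 at 2.25 and 4.86 FPKM (difference 0.85). The more abundant of them lay near *ccnd1* in both libraries.

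Cdk1 is held inactive by phosphorylation, which the kinases Wee1 and Myt1 add and Cdc25 phosphatases remove. Both inhibitory kinase genes were higher in the mutant-labelled library. *pkmyt1*, which encodes Myt1, was at 1.69 and 10.04 FPKM (72 and 408 reads, ratio 5.94, 4.62 to 7.75), and *wee1* at 7.28 and 19.7 FPKM (ratio 2.70, 2.43 to 3.01). The difference of *wee1* was 1.32 in the deposited values and 0.85 with TMM scaling. *cdc25b*, the phosphatase gene, was at 22.4 FPKM in control and 34.1 in the mutant-labelled library. Its difference of 0.58 changed sign with upper-quartile scaling (-0.04).

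The mitotic kinases divided. *plk1*, the Polo kinase of mitotic entry and spindle assembly, was at 51.3 FPKM in control and 236 in the mutant-labelled library (941 and 4126 reads), a ratio of 4.60 (4.28 to 4.94). It held rank 4 among the 41 genes in control and rank 1 in the mutant-labelled library. *plk4*, which starts the duplication of centrioles, was at 2.98 and 7.97 FPKM (difference 1.17). *aurka*, the Aurora kinase of the spindle poles, was at 22.9 and 45.8 FPKM, just under the threshold with a difference of 0.97.

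The Aurora kinase of the chromosomal passenger complex, *aurkb*, was the most abundant of the 41 genes in control and went the other way. Its level was 211 FPKM in control (2872 reads) and 152 in the mutant-labelled library (1971 reads), a ratio of 0.720 (0.679 to 0.763). The difference of -0.47 did not reach the threshold in the deposited values, but was below 0 under all 5 scalings and reached -1.11 with upper-quartile scaling. *birc5a*, which encodes survivin of the same complex, was at 15.9 and 15.7 FPKM, with a ratio of 0.985 (0.859 to 1.13) that spans 1. A further subunit, *cdca8* (borealin), is in the list of other passenger genes and was at 7.84 FPKM in control and 71.1 in the mutant-labelled library, a ratio of 9.06 (7.81 to 10.6). Genes of this complex therefore did not change in proportion to each other.

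Genes of the spindle assembly checkpoint also differed among themselves. *ttk*, the kinase that starts the signal at unattached kinetochores (Mps1), was at 9.48 FPKM in control and 39.1 in the mutant-labelled library (ratio 4.12, 3.71 to 4.59). *bub1ba*, which encodes the BubR1 type of checkpoint protein, was at 6.05 and 21.3 FPKM (ratio 3.52, 2.96 to 4.19). *mad2l1*, the inhibitor that binds Cdc20, was at 32.2 and 72.1 FPKM, and its difference of 1.14 was 0.63 with TMM scaling. The kinase gene *bub1* was nearly level, at 15.8 and 14.6 FPKM (ratio 0.928, 0.818 to 1.05).

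*bub3*, the scaffold that brings Bub1 and BubR1 to kinetochores, was the gene of the 39 that was lower by more than 1. It was at 122 FPKM in control (2723 reads) and 59.4 in the mutant-labelled library (1264 reads), a ratio of 0.487 (0.455 to 0.521). The difference of -1.03 lay close to the threshold. It was -1.54 with TMM scaling and -0.81 when both libraries were set to the same sum of FPKM (TPM), so it was below 0 under each scaling but not always past the threshold. *bub3* held rank 2 of the 41 genes in control and rank 13 in the mutant-labelled library.

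At the kinetochore, Ndc80 and Nuf2 form the dimer that grips microtubules. *nuf2* was at 1.77 FPKM in control (38 reads) and 24.7 in the mutant-labelled library (506 reads), a ratio of 14.0 (10.04 to 19.97). *ndc80* was at 5.21 and 34.2 FPKM (ratio 6.57, 5.58 to 7.77). The large corona proteins followed less. *cenpe*, a kinetochore motor, was at 14.0 and 26.03 FPKM (difference 0.85), and *cenpf* was at 2.25 and 3.04 FPKM, with a difference of 0.31 that turned to -0.06 with TMM scaling.

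All 4 genes for spindle motors and assembly were higher in the deposited values, and 3 were with TMM scaling. The shares of all tested genes were 33.3% and 21.2%. *kif11*, the motor that pushes the spindle poles apart, was at 15.8 FPKM in control and 105 in the mutant-labelled library (ratio 6.62, 5.74 to 7.66). *tpx2*, the activator of Aurora A on the spindle, was at 34.2 and 136 FPKM (ratio 3.97, 3.69 to 4.29). The motors of the central spindle, *kif23* and *kif20a*, differed by 1.65 and 1.16. With TMM scaling *kif20a* fell short of the threshold, at 0.70.

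Of the genes for the onset of anaphase, only *cdc20*, the APC/C activator, was higher by more than 1. It was at 10.9 FPKM in control (277 reads) and 118 in the mutant-labelled library (2866 reads), a ratio of 10.9 (9.59 to 12.3), and its difference exceeded those of 99.6% of all tested genes. Separase, which cleaves cohesin, was scarce, with *espl1* at 2.34 and 4.04 FPKM. Its inhibitor securin, a target of Cdc20, had the opposite direction. *pttg1* was at 21.4 FPKM in control and 15.3 in the mutant-labelled library, a ratio of 0.714 (0.600 to 0.849), and its difference of -0.46 was -0.95 with TMM scaling. *cdc20* and *pttg1* were thus on opposite sides of 0 under every scaling tried. The B cyclins are also targets of Cdc20, and *ccnb1*, *ccnb2* and *ccnb3* were above 0 under every scaling, as *cdc20* was. Cdc20 acts on the proteins of its targets, which were not measured here.

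For cytokinesis, *racgap1*, a subunit of centralspindlin, was at 6.93 and 34.2 FPKM (ratio 4.94, 4.37 to 5.59). *anln*, the scaffold of the contractile ring, was at 13.9 and 27.3 FPKM, with a difference of 0.93. *ect2*, the exchange factor that centralspindlin recruits, was at 6.57 FPKM in control and 5.60 in the mutant-labelled library (ratio 0.852, 0.742 to 0.976), and its difference of -0.20 was -0.64 with TMM scaling. The last group holds *top2a*, the topoisomerase that untangles chromosomes, and *mki67*, the coat protein of mitotic chromosomes used as a proliferation marker. *top2a* was at 17.99 and 59.1 FPKM (ratio 3.28, 3.10 to 3.48) and *mki67* at 7.38 and 15.2 FPKM (ratio 2.06, 1.92 to 2.22), the latter with a difference of 0.95 just under the threshold.

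**Figure D2:**
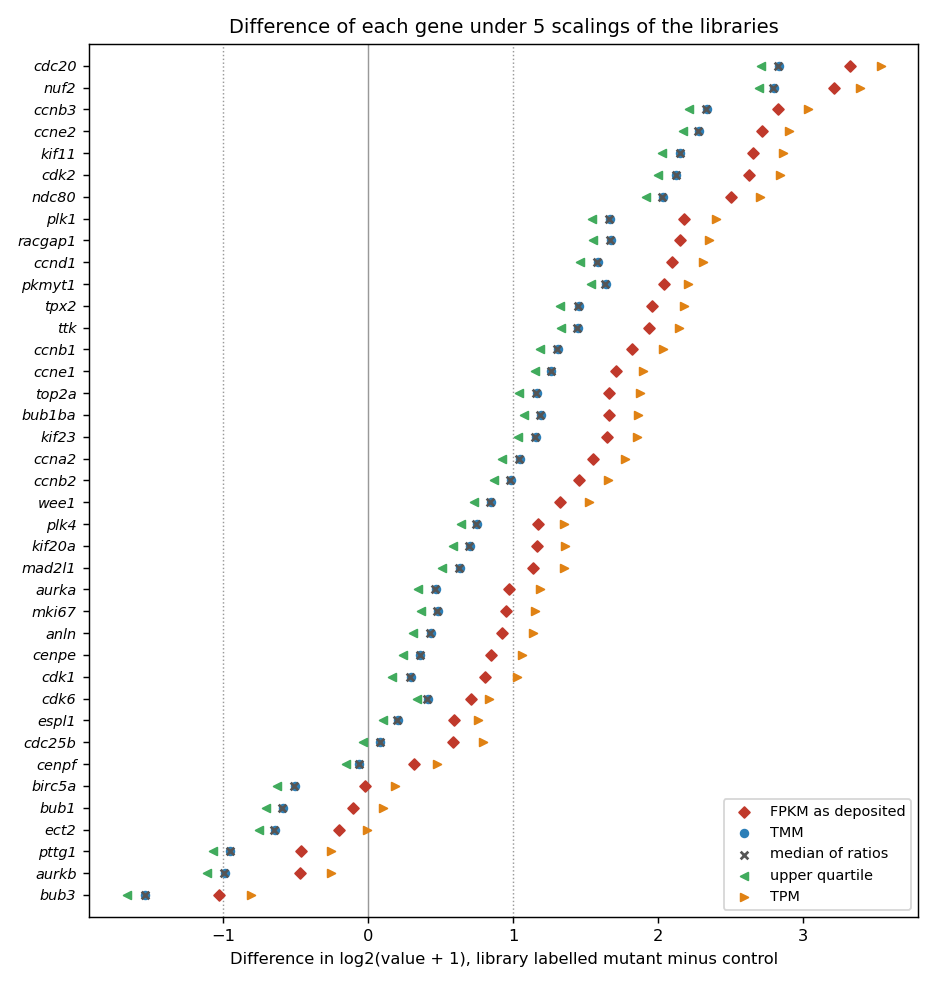
Difference in log2(value + 1), mutant-labelled library minus control, of the 39 tested genes under 5 scalings (symbols and colours), ordered by the deposited values, with dotted lines at the threshold of 1 on either side of 0. The scalings shift all genes together, so that the order barely changes: *cdc20* and *nuf2* remain at the top and *bub3* at the bottom.

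The intervals of counting error separated most genes from a ratio of 1. In the deposited values the interval lay above 1 for 33 of the 39 genes, below 1 for 4 (*aurkb*, *bub3*, *pttg1* and *ect2*) and across 1 for 2 (*birc5a* and *bub1*). After TMM scaling it lay above 1 for 31, below 1 for 6 and across 1 for 2. Recovered reads of the tested genes ranged from 35 to 5001. These intervals compare the libraries and leave out how much hearts of 1 genotype vary. The share of all tested genes with such intervals is not given here. These counts are therefore not read as particular to the mitosis and cyclin genes. The levels of the 39 genes kept much of their order between the libraries (Spearman's rho 0.79 across genes, which are not independent replicates), close to the 0.78 over all tested genes.

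A ratio of 2 genes within a library does not depend on how the libraries are scaled to each other. Such ratios were computed for 17 pairs of genes whose products act together, a choice made after the values were seen. *cdc20* was at 0.338 times the level of *mad2l1* in control and at 1.64 times in the mutant-labelled library, a 4.85-fold change (4.13 to 5.69). Relative to *bub3*, *cdc20* went from 0.0892 to 1.99, a 22.3-fold change (19.4 to 25.6). These genes had the largest and the smallest difference of all tested members, so a large fold followed from the choice of the pair. Folds of gene pairs outside the 17 are not given here, so the folds are not read as particular to these partners. The activator of the APC/C was therefore less abundant than both checkpoint transcripts in control and more abundant than both in the mutant-labelled library.

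Other pairs shifted as well. *plk1* was at 0.244 times the level of *aurkb* in control and 1.56 times in the mutant-labelled library, a 6.39-fold change (5.83 to 6.998). *racgap1* was at 1.05 and 6.11 times the level of *ect2*, a 5.80-fold change (4.84 to 6.95). *ccnb1* was at 0.522 and 1.06 times the level of *cdk1*, a 2.04-fold change (1.85 to 2.24). By contrast *ccna2* went from 1.91 to 0.885 times the level of *cdk2*, so that the cyclin was above its kinase in control and below it in the mutant-labelled library. The pair closest to proportion was *ccne2* with *cdk2*, with a fold of 1.35 (1.05 to 1.73). The intervals of these folds come from the reads by the delta method and cover counting error only.

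**Figure D3:**
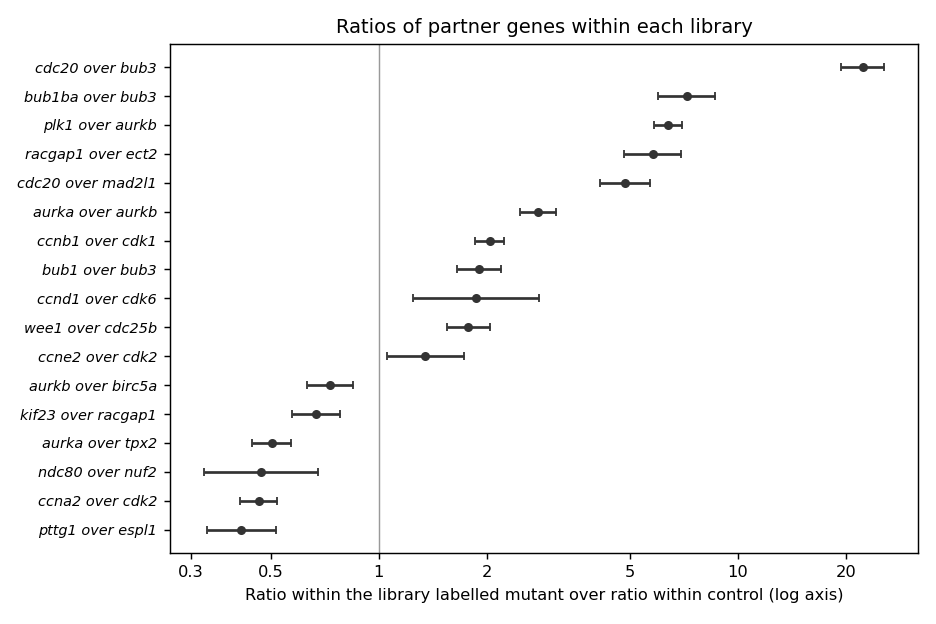
Change of the ratio of 2 partner genes, given as the ratio within the mutant-labelled library divided by the ratio within control (log axis), for 17 pairs. Bars are 95% intervals of counting error, and the line marks 1: *cdc20* over *bub3* lies farthest to the right (22.3) and *pttg1* over *espl1* farthest to the left (0.414). *cdc20* and *bub3* are the tested members with the largest and the smallest difference.

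Genes of the same pathways outside the 42 were examined with lists written from general knowledge. For these and the following lists, the shares of all tested genes were 33.3% higher and 11.6% lower. With TMM they were 21.2% and 19.3%. Of 30 other kinetochore and passenger genes, 24 were higher and 1 lower, with a median difference of 1.75, and 20 were higher with TMM scaling. Besides *cdca8*, the largest differences were those of *zwilch* (2.69) and *zw10* (2.47), which encode subunits of the complex that brings dynein to kinetochores. Of 17 condensin and cohesin genes, 12 were higher and 0 lower (with TMM, 9 and 0), and the median was 1.60. *esco2*, which acetylates cohesin, differed by 2.41. The condensin subunit genes *ncapg* and *ncapd3* were at 11.4 and 3.82 FPKM in control and at 89.6 and 33.8 FPKM in the mutant-labelled library. Of 25 other spindle, centrosome and cytokinesis genes, 13 passed the threshold upward and 0 downward (under TMM, 11 and 0). They were led by the motor gene *kif15* (2.90), the spindle gene *nusap1* (2.56) and *mapre1b*, which encodes a protein of microtubule ends (2.34).

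The list of E2F, Rb and MuvB genes, which control the transcription of cell cycle genes, held 9 higher and 0 lower genes of 18 (7 and 1 with TMM), with a median of 1.02. The histone-binding *rbbp4* was at 37.3 FPKM in control and 224 in the mutant-labelled library, and *e2f7*, a repressor of the family, at 2.22 and 14.4 FPKM. *lin9* of the MuvB complex differed by 2.22. *foxm1*, the activator of mitotic genes in mammals, was below 1 FPKM in both libraries. Of 15 CDK inhibitors and damage checkpoint genes, 7 passed the threshold upward and 1 downward (under TMM, 3 and 1). Among all genes 33.3% were higher and 11.6% lower, and under TMM 21.2% and 19.3%. Nothing particular to this list was read from its counts. *ccng1*, which encodes cyclin G1, was at 445 and 2036 FPKM. *cdkn1a*, the p21 inhibitor of CDKs, was at 10.2 and 24.7 FPKM (difference 1.20, or 0.72 with TMM), and *ccng2*, a cyclin linked to arrest, at 13.1 and 58.2 FPKM. These single genes, *cdkn1a* among them chosen after its value was seen, do not describe the list as a whole.

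For DNA replication, 29 of 47 genes exceeded the threshold upward and 4 downward (with TMM, 18 and 6), at a median of 1.25. *orc3* of the origin recognition complex differed by 3.37 and the flap nuclease gene *fen1* by 3.05, and *rfc2* of the clamp loader by 2.91. The sliding clamp gene *pcna*, at 990.3 FPKM in control the most abundant of the list, was at 959 FPKM in the mutant-labelled library, a ratio of 0.969 (0.935 to 1.004) in the deposited values that was 0.677 with TMM scaling. A list of cyclins and CDKs of transcription and other roles was mixed. It also held the D cyclin gene *ccnd3* and, outside both families, *mnat1*, *cdc25d*, *cks1b* and *cks2*. Of its 25 tested genes, 10 were higher and 3 lower, and the median was 0.79, beside 33.3% higher and 11.6% lower among all genes. With TMM, 6 of 26 tested were higher and 4 lower, and the median was 0.18, beside 21.2% and 19.3%. In this list *ccnl1b* (2.51) and *mnat1* (2.33) were higher, whereas *ccni* was at 724 FPKM in control and 130.3 in the mutant-labelled library (-2.46).

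**Figure D4:**
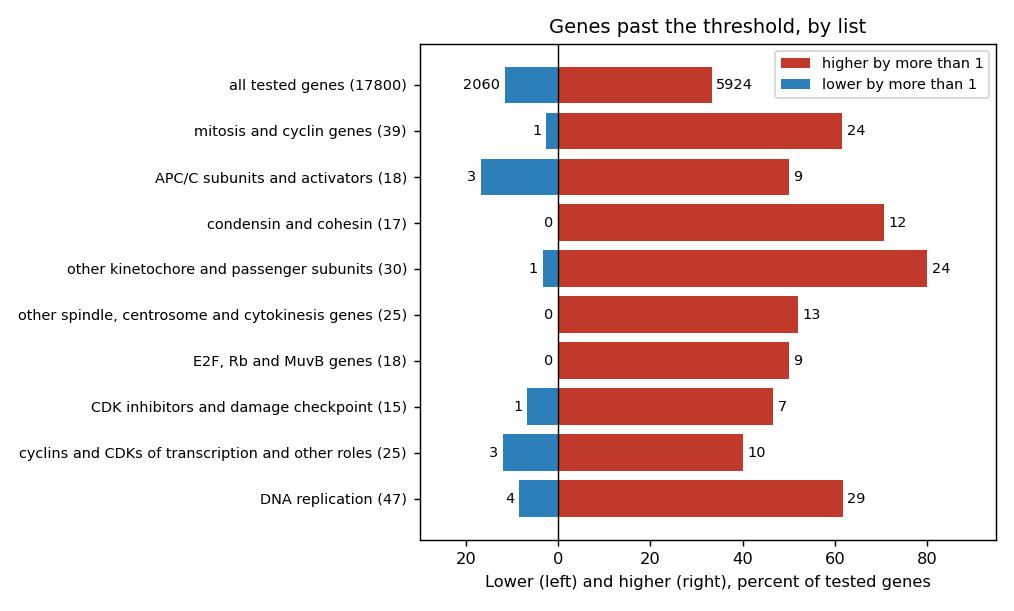
Percent of tested genes that were higher (red, to the right) or lower (blue, to the left) by more than 1 in the mutant-labelled library, for all tested genes, the mitosis and cyclin genes and 8 lists of related genes. The number tested stands beside each name and the number past the threshold beside each bar, such as 24 higher and 1 lower of 39 for the mitosis and cyclin genes.

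Markers of tissues were examined beside these results. Of the cardiomyocyte list 5 of 10 names were matched, and 3 of these were higher with 1 lower in the deposited values and with TMM, and their sums were 6382 and 6972 FPKM. Cardiac myosin light chain *myl7* was at 642 FPKM in control and 2977 in the mutant-labelled library, whereas cardiac actin *actc1a*, the lower one, was at 4275 and 1685 FPKM. Of 6 tested markers of neural and retinal progenitors, 4 were higher and 0 lower (1 and 0 with TMM), and the 9 matched genes summed to 62.6 and 113 FPKM. The retinal progenitor genes *rx1* and *rx2* were below 1 FPKM in both libraries. Of 3 cartilage and pharyngeal arch markers 2 were higher and 0 lower (under TMM, 1 and 1; 103 and 236 FPKM in sum), and of 5 neuron markers 0 were higher and 3 lower (285 and 166 FPKM). The 3 matched lens markers summed to 0.626 FPKM in control, with 2 of them at 0, and to 47.4 FPKM in the mutant-labelled library. The 8 liver markers were all lower, with sums of 19540 and 5002 FPKM. The 9 epidermal markers summed to 19225 and 24812 FPKM, with 3 higher and 2 lower (0 and 2 with TMM). Erythrocyte markers summed to 3106 and 2461 FPKM, although 3 of 7 were higher and 0 lower (under TMM, 2 and 2). Skeletal muscle markers summed to 3538 and 1177 FPKM, with 2 of 6 higher and 3 lower in the deposited values and with TMM. Endothelial markers summed to 143 and 214 FPKM, with 2 of 8 higher and 1 lower (under TMM, 1 and 1). The part of these tissues in the levels of the mitosis and cyclin genes was not tested.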

How the data were processed

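Hearts at 72 hpf gave 1 control library and 1 mutant-labelled library. The authors deposited FPKM values, a unit inferred from the values, from reads aligned to the unmasked zebrafish genome. The submitters' processing notes name Bowtie2 2.0.6 and TopHat2 2.0.9. The genome build, annotation, counting rule and use of strand are not given in the sources used here, so no coordinates are given and sequences were not used here. In the RefSeq table of GRCz12tu, 11 of the 42 genes overlap another gene, among them *cdk1*, *cdk2*, *bub3* and *top2a*, and reads of such neighbours could have been mixed.

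Names came from a table matching 26433 of the 33396 identifiers. *birc5a* was matched through the symbol BIRC5, held by 1 identifier. The members and lists were chosen with earlier results of these data known. All 42 genes are described, and in each other list the 3 genes with the largest difference past 1 that reached 10 FPKM were named. *pcna*, *foxm1* and *cdkn1a* were chosen after their values were seen, and from the marker lists only genes that bear on a result are named. Some genes of these lists are not reported here.

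A pseudocount of 1 FPKM, a minimum of 1 FPKM in either library and a threshold of 1 were used. The ratio of FPKM values of a gene equals that of 2 whole numbers of reads, multiplied by the control total over the mutant total. From this the totals and the smallest whole reads were recovered for 99.9% of the genes above 0, within a relative tolerance of 1e-13 on the ratio. The smallest totals not below the sum of the reads were kept. Some genes may have had more reads than recovered, by a whole factor. The recovery and the counting of differences were tested on simulated data. Alternatives were TMM (30% and 5% trims), median-of-ratios, upper-quartile and TPM scaling (the last chosen after seeing the data), subtraction of the median, a pseudocount of 0.1, other filters, a threshold of 2, and lowess detrending (span 0.3) against gene length or expression level. The software was Python 3.11.15 with scipy 1.17.1, statsmodels 0.14.6, numpy 2.4.6, matplotlib 3.10.9 and pandas 2.3.3.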

Additional observations from a re-analysis of the deposited data

How the results depend on the processing

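No paired analysis was possible because each group had 1 library. The count of higher mitosis and cyclin genes (24) stayed between 16 and 29 under all alternatives but the threshold of 2, which left 11 higher and 0 lower. The count of lower genes (1) became 3 with upper-quartile scaling, 2 after removal of the expression level trend and 0 with TPM. Their median of 1.46 was 0.87 with upper-quartile scaling, 0.92 after removal of the gene length trend and 0.71 after removal of the expression level trend. It stayed above 0 under every alternative, and relative to the median of all genes it was 0.96. Over all tested genes, 5924 were higher and 2060 lower. These counts were 3774 and 3441 with TMM, 3749 and 3462 with median of ratios, 3321 and 3895 with upper-quartile scaling, 3319 and 3824 relative to the median, 3321 and 3597 without the length trend, 3317 and 3611 without the level trend, and 1565 and 411 at the threshold of 2. With TPM, 6884 of 17847 tested genes were higher and 1610 lower. With a pseudocount of 0.1, 7200 of 17800 were higher and 2762 lower. The largest counts of higher mitosis and cyclin genes, 29 and 26, belong to these settings, where the background was raised as well. The cause of these shifts was not tested. Single genes past the threshold kept their sign under all alternatives. Depth limited *cdk4* and *ccna1*, with at most 24 reads in a library.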

Other observations

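A list for the anaphase-promoting complex, the ubiquitin ligase that Cdc20 activates, included genes on both sides. It held subunits, the activator genes *fzr1a* and *fzr1b*, and the regulators *fbxo5* and *ube2s*. Among its 18 tested genes, 9 were higher and 3 lower, with a median difference of 0.97. The shares among all genes were 33.3% higher and 11.6% lower. With TMM, 5 were higher and 3 lower, the median was 0.51, and the shares of all genes were 21.2% and 19.3%. Nothing particular to this list was read from these counts. *anapc5* was at 3.71 FPKM in control and 27.4 in the mutant-labelled library, *anapc4* at 5.04 and 29.7 FPKM, and *cdc27* at 12.9 and 56.8 FPKM. The genes that were lower encode small subunits, chosen here after their values were seen. *anapc16* was at 183 and 49.4 FPKM, *anapc11* at 46.7 and 11.5 FPKM, and *anapc13* at 23.4 and 7.95 FPKM. The directions of *anapc16*, *anapc11* and *anapc13* were below 0 in the deposited values and with TMM scaling.

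Within the replication list the following genes were chosen after their values were seen. The helicase subunit gene *mcm7* was at 358 FPKM in control and 101 in the mutant-labelled library, whereas *mcm5* was at 44.3 and 141 FPKM and *mcm3* at 32.5 and 84.2 FPKM. Among the subunits of the clamp loader, *rfc4* was at 174 and 79.2 FPKM, and *rfc2* at 10.3 and 83.7 FPKM.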
